A study of Arabidopsis thaliana with 6 samples.

Results

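The transcripts described here come from the chloroplast genome, the small circular genome that Arabidopsis thaliana carries inside its plastids. The members were all identifiers beginning with ATCG, 133 of the 32833 loci in the count tables. The authors' deposited table gives a gene name to 70 of them, and a RefSeq note on a nuclear homolog names ATCG00670 as the plastid-encoded protease subunit ClpP. The 71 named loci encode proteins and were grouped by the start of their names. The other 62 identifiers carry no name in the sources used here. RefSeq lists 85 protein-coding, 7 rRNA and 37 tRNA entries for this genome but does not pair them with ATCG identifiers, so rRNA, tRNA and the remaining protein genes could not be told apart among the unnamed identifiers. These are therefore reported by identifier and apart from the named loci.

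All samples were whole seedlings of the genotype Columbia, collected 8 d after being set to germinate. The air group (3 libraries) germinated for 3 d in darkness without ethylene and the ethylene group (3 libraries) for 3 d in darkness with 0.7 ppm ethylene, a gaseous plant hormone. Both groups then spent 5 d in light without the gas, and the comparison addresses what differed after the early exposure. The labels do not say whether libraries of a group were grown separately, and the p-values below therefore rest on a spread that may be technical.

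Chloroplast genes encode core subunits of the photosystems, the cytochrome b6f complex, the ATP synthase and the NDH complex, the large subunit of Rubisco, and part of the plastid's own ribosome and RNA polymerase. They are transcribed by a bacterial-type polymerase whose core is made in the plastid and by a nuclear-encoded phage-type polymerase, mostly as long RNAs that cover several neighbouring genes and are then cut. Unlike nuclear messages, chloroplast messages carry no stable poly(A) tail. Messenger RNA was enriched in these samples, per the labels' protocols, by a method that is not given in the sources used here, so the levels below describe the chloroplast RNA that remained in the libraries. In whole seedlings, fewer green cells and less chloroplast RNA per cell cannot be told apart.

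Plant counts ranged from 12870604 to 17116359 per library, and 1 count corresponded to between 0.0584 and 0.0777 CPM, the depth-scaled unit used below. The named loci had between 149629 and 284834 counts per library. All 71 named loci and 31 of the 62 unnamed identifiers passed the filter on low counts. Of the unnamed identifiers, 12 had no count in any library, and none of the 31 that were not tested had more than 28 counts in a library.

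Ethylene replicate 3 stood apart from the other 5 libraries in its chloroplast transcripts. Named loci made up 1.25%, 1.31% and 1.33% of plant counts in air replicates 1 to 3, 1.011% and 1.20% in ethylene replicates 1 and 2, and 1.66% in ethylene replicate 3. The air libraries thus lay between 2 lower and 1 higher ethylene library, and the group means hardly differed, at 1.30 ± 0.04% in air and 1.29 ± 0.34% after ethylene (SD, n = 3 each). In 59 of the 71 named loci the level in ethylene replicate 3 was above that of all other 5 libraries. Relative to the mean of ethylene replicates 1 and 2, the level in ethylene replicate 3 was more than 2-fold higher in 39 named loci (54.9%), against 1.49% of 17753 nuclear loci. The median ratio was 2.19 for the named loci and 0.990 for the nuclear loci. Among all loci with a mean of at least 1 CPM, the 5 highest ratios and 15 of the 20 highest belonged to chloroplast identifiers. Mitochondrial loci, whose messages also lack stable poly(A) tails, exceeded 2-fold in 19 of 30 tested, with a median ratio of 2.25. A nuclear locus annotated by RefSeq as rRNA, AT3G41768, was at 1609 and 2105 CPM in ethylene replicates 1 and 2 and at 19976 CPM in ethylene replicate 3, a ratio of 10.8. The mitochondrial share of plant counts was 0.0549% to 0.0936% in air, 0.168% and 0.183% in ethylene replicates 1 and 2 and 0.473% in ethylene replicate 3. The part of such RNA in the differences between chloroplast genes was not tested. The main results below are therefore given with and without ethylene replicate 3. That library stands apart in the same chloroplast levels that are tested. Calls and p-values without it therefore depend on this choice and rest on ethylene replicates 1 and 2 alone.

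**Figure D1:**
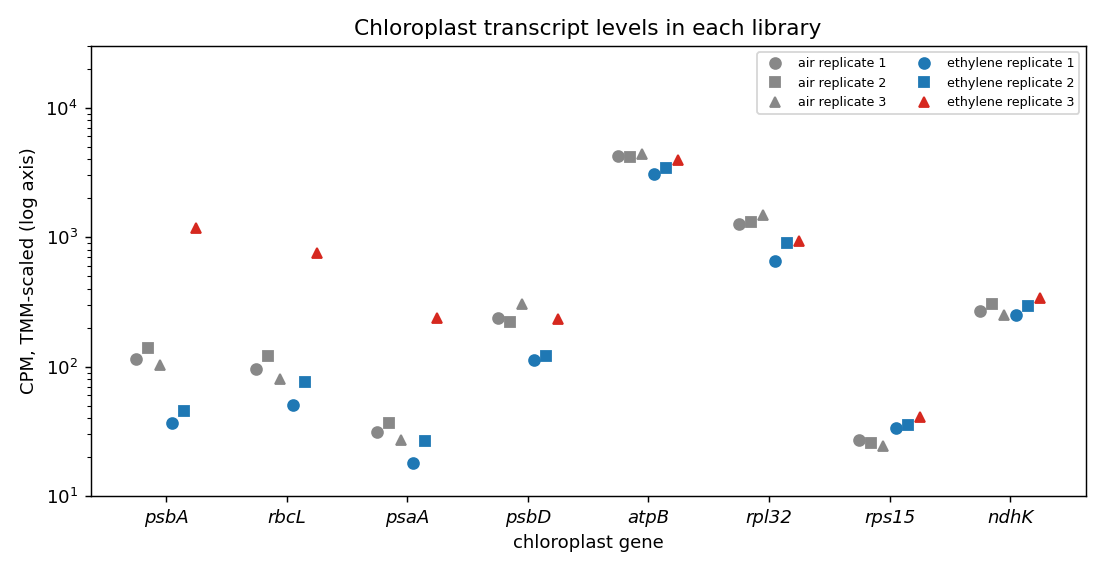
Levels of 8 chloroplast genes in each library, as TMM-scaled CPM on a log axis, with grey symbols for air, blue for ethylene replicates 1 and 2 and red for ethylene replicate 3. For psbA the red point is at 1177 CPM, above all other libraries, whereas for rpl32 it is at 935.8 CPM, below the air libraries.

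With all 6 libraries, few chloroplast messages were called different. Of the 71 named loci, 7 were lower and 1 was higher after ethylene in edgeR's quasi-likelihood test at an adjusted p under 0.05, where 16.8% of all loci tested were called lower and 15.8% higher (32.6% in either direction). Their median log2 fold change was 0.09, against 0.02 for all loci tested. The groups did not overlap in 8 named loci (11.3%, against 47.7% of all loci tested). Leaving out ethylene replicate 3 gave 18 lower named loci and 1 higher, against 13.9% and 12.5% of all loci tested (26.4% in either direction). The median of the named loci was then -0.43, against 0.02 for all loci. The groups now did not overlap in 42 named loci (59.2%, against 55.7% of all loci tested), 39 of which were lower after ethylene. The 18 included all 7 lower loci of the full set, and the 1 higher locus was also shared. DESeq2 on all 6 libraries called 6 named loci lower and 2 higher, where it called 16.3% of all loci lower and 15.2% higher (31.5% in either direction). It gave no p-value for 4 named loci, psbA, atpH, psaA and rbcL, which it could therefore not call.

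The direction of these changes depended on the scaling. TMM scaling sets levels relative to most other messages in a library. Scaling on synthetic spike-in RNAs moved the median of all loci to 0.47 on the log2 scale with 6 libraries and to 0.58 without ethylene replicate 3. Spike-in RNAs made up 1.98% to 2.23% of all counts in air and 1.51%, 1.66% and 1.98% in ethylene replicates 1 to 3. The spike-in scale thus rests on shares that also differed within a group. With 6 libraries on the spike-in scale, none of the named loci was lower and 38 were higher, where 4.63% of all loci were lower and 40% higher (44.7% in either direction). Without ethylene replicate 3 on that scale, 6 were lower and 15 higher, where 4.23% of all loci were lower and 47.4% higher (51.6% in either direction). Scaling on the summed counts of the named chloroplast loci shows how they changed relative to that sum. Between 41.3% and 52.5% of the sum came from atpB and atpE, which therefore weigh most in it. psbA held 0.382% and 0.403% of the sum in ethylene replicates 1 and 2 and 7.45% in ethylene replicate 3. This scaling gave 0 lower and 7 higher with 6 libraries, where 4.44% of all loci were lower and 14.3% higher (18.7% in either direction). It gave 9 lower and 8 higher without ethylene replicate 3, where 5.19% of all loci were lower and 33.2% higher (38.4% in either direction). In the 5 libraries without ethylene replicate 3, psbA, psbC, psbD, psbE, psbZ and psaJ were lower and rps15 was higher on all 3 scales.

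**Figure D2:**
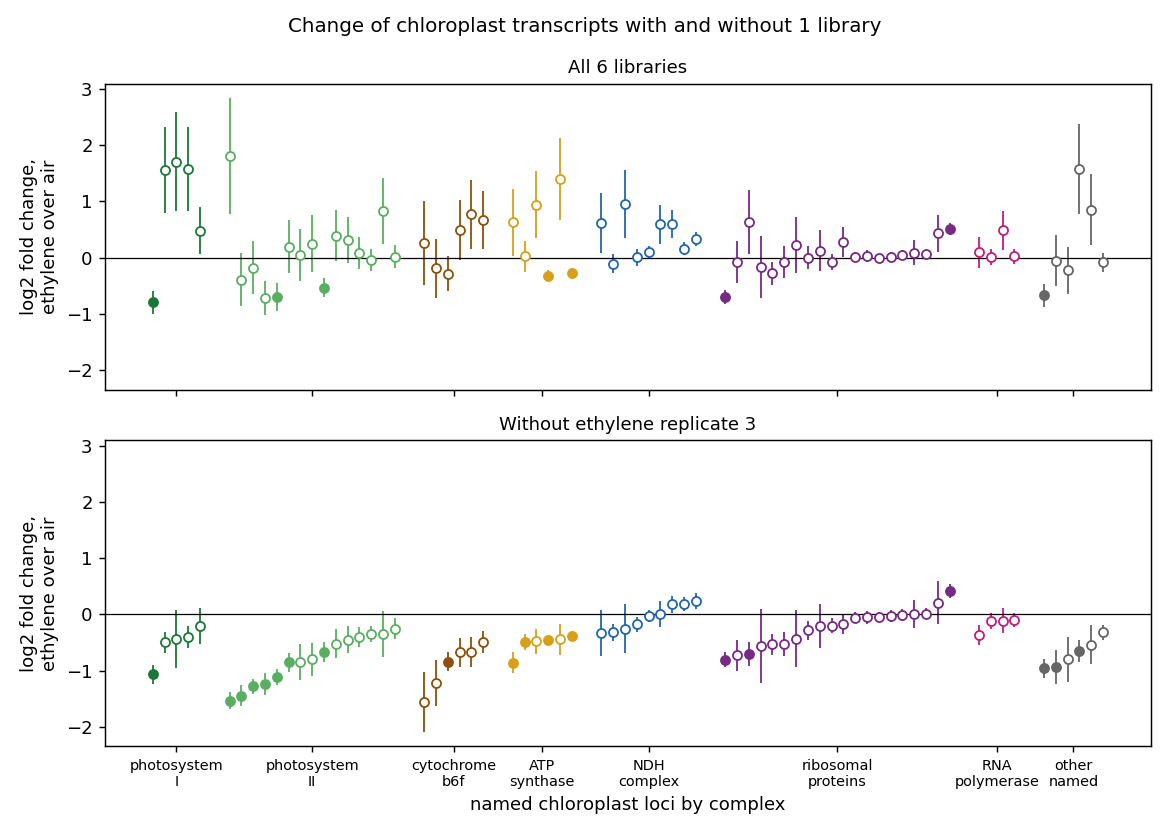
Log2 fold changes (ethylene over air, TMM scale) of the 71 named loci by complex, with all 6 libraries above and without ethylene replicate 3 below; bars are standard errors, genes are sorted by the lower panel within a complex, and filled points have an edgeR adjusted p under 0.05. Without that library the photosystem II loci lie between -1.54 and -0.25 and the NDH loci between -0.33 and 0.23.

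Photosystem II messages made up the 5 largest falls among the 18 loci called lower without ethylene replicate 3. Of 15 members, 7 were lower and none higher in those libraries, where 13.9% of all loci were lower, and the median log2 fold change was -0.80. With all 6 libraries only psbD and psbM were lower, where 16.8% of all loci were, and the median was 0.05. On the spike-in scale without ethylene replicate 3, 5 of the 7 remained lower and none was higher. Of all loci, 4.23% were lower and 47.4% higher there.

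psbA encodes D1, the reaction centre protein that is damaged by light and replaced continuously. Its level was 116, 139.0 and 102 CPM in air replicates 1 to 3, 36.8 and 45.2 CPM in ethylene replicates 1 and 2, and 1177 CPM in ethylene replicate 3. Both low ethylene libraries lay below all air libraries, and the third was 28.7 times their mean. The log2 fold change was 1.82 ± 1.03 with all libraries (SE; edgeR adjusted p = 0.210) and -1.54 ± 0.15 without ethylene replicate 3 (edgeR adjusted p = 0.000191).

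psbD, which encodes the partner reaction centre protein D2, had 236, 223 and 303 CPM in air, 113 and 121 CPM in ethylene replicates 1 and 2, and 234 CPM in ethylene replicate 3. The last value lay within the air range. It fell by 0.70 ± 0.24 on the log2 scale with all libraries (edgeR adjusted p = 0.0494), a call lost in DESeq2 (adjusted p = 0.158) and on the spike-in scale (-0.30). Leaving out air replicate 1 or 3, or ethylene replicate 1 or 2, also ended the call, with an adjusted p of up to 0.167 in edgeR. In the 5 libraries without ethylene replicate 3, psbD fell by 1.12 ± 0.14 (edgeR adjusted p = 0.000530).

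psbC, for the inner antenna protein CP43, shares an overlapping reading frame with psbD, so reads in the overlap cannot be assigned to either gene with certainty. It had 155, 130.02 and 157 CPM in air and 53.1, 68.2 and 269 CPM in ethylene replicates 1 to 3. Its log2 fold change was -0.18 ± 0.48 with all libraries (edgeR adjusted p = 0.813) and -1.28 ± 0.14 without ethylene replicate 3 (edgeR adjusted p = 0.000268). psbB, for the other inner antenna protein CP47, showed the same pattern, with 43.4 to 54.5 CPM in air, 22.8 and 32.3 CPM in ethylene replicates 1 and 2 and 115 CPM in ethylene replicate 3. It was lower without that library on the TMM scale (-0.86 ± 0.17, edgeR adjusted p = 0.00570) but not on the spike-in scale (-0.30).

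Among the small subunits, psbE (cytochrome b559) fell by 1.45 ± 0.19 and psbZ by 1.24 ± 0.20 without ethylene replicate 3, and neither was called with all libraries (edgeR adjusted p = 0.563 and 0.0954). psbM was the most abundant photosystem II message, at 732, 881.5 and 749 CPM in air and 379, 612 and 635 CPM after ethylene, with no overlap between the groups. It fell by 0.54 ± 0.17 (edgeR adjusted p = 0.0340), and by 0.67 ± 0.18 without ethylene replicate 3 (edgeR adjusted p = 0.0220). The call was lost without air replicate 1 or 2 and on the spike-in scale (-0.10). psbN had 1.03 to 5.82 CPM and lies on the opposite strand to its neighbours; whether the counting used strand is not given, so its value is uncertain.

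Of the 5 photosystem I members, only psaJ was called on the TMM scale, with or without ethylene replicate 3. Of all loci, 32.6% and 26.4% were called in these settings. psaA and psaB encode the large proteins that bind the reaction centre pigments. psaA had 31.4, 36.7 and 27.2 CPM in air, 18.1 and 26.9 CPM in ethylene replicates 1 and 2, and 236 CPM in ethylene replicate 3. psaB had 30.2, 37.1 and 27.4 CPM in air and 19.1, 28.8 and 233 CPM after ethylene. Ethylene replicate 3 was far above every other library for both genes, and only for psaB did ethylene replicate 2 lie within the air range. In the 5 other libraries their log2 fold changes were -0.50 ± 0.19 and -0.40 ± 0.20, neither past the test (edgeR adjusted p = 0.0875 and 0.167). With all libraries they were 1.57 ± 0.77 and 1.57 ± 0.75, which did not pass either (edgeR adjusted p = 0.148 and 0.137), although psaB was called higher without ethylene replicate 1. With spike-in scaling 4 of the 5 members were higher with all libraries, and none without ethylene replicate 3. On that scale 40% and 47.4% of all loci were higher. psaC, for the iron-sulfur subunit, had 0.621 to 1.15 CPM in the other 5 libraries and 7.54 CPM in ethylene replicate 3.

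psaJ, a small subunit, had 67.3, 90.04 and 59.3 CPM in air and 34.7, 34.3 and 55.8 CPM after ethylene, so that no ethylene library reached the air range. It fell by 0.79 ± 0.20 (edgeR adjusted p = 0.0138), a call lost without ethylene replicate 1 or 2 and on the spike-in scale (-0.36). Leaving out ethylene replicate 3 gave a fall of 1.07 ± 0.17, which was also called on the spike-in scale (-0.50, edgeR adjusted p = 0.0188).

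In the cytochrome b6f complex, which passes electrons between the photosystems, none of 6 members was called with all libraries (median 0.38). Of all loci, 32.6% were called. In the 5 libraries without ethylene replicate 3 the median of the complex was -0.76. Only petA, for cytochrome f, was called there, with a fall of 0.84 ± 0.17 (edgeR adjusted p = 0.00695), where 26.4% of all loci were called. On the spike-in scale in those libraries no member was called, where 51.6% of all loci were. The median of the complex was then -0.21 and petA was at -0.29. petA had 26.5 to 35.7 CPM in air, 15.2 and 18.3 CPM in ethylene replicates 1 and 2 and 40.2 CPM in ethylene replicate 3. petB, for cytochrome b6, had a log2 fold change of 0.77 ± 0.62 with and -0.67 ± 0.27 without that library, neither past the test.

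Of the complexes, the ATP synthase held the most counts of the named loci, nearly all of them from 2 members. atpB and atpE, for the beta and epsilon subunits of the catalytic head, overlap in sequence and held between 41.3% and 52.5% of the counts of the named loci. atpB had 4204, 4184 and 4381 CPM in air and 3093, 3442 and 3974 CPM after ethylene, with no overlap between the groups. atpE had 2541, 2804 and 2808 CPM in air and 1981, 2003 and 2553 CPM after ethylene, where ethylene replicate 3 reached the air range. atpB fell by 0.28 ± 0.10 and atpE by 0.32 ± 0.11 on the TMM scale (edgeR adjusted p = 0.0454 and 0.0420), but both were at 0.16 and 0.12 on the spike-in scale. Each of these 2 calls was lost when any 1 library other than ethylene replicate 3 was left out. The other 4 members had log2 fold changes from 0.02 to 1.40 with all libraries, none called, where 32.6% of all loci were. When ethylene replicate 3 was left out, atpA, for the alpha subunit, fell by 0.86 ± 0.18 and atpI, for a membrane subunit, by 0.49 ± 0.14 (edgeR adjusted p = 0.00834 and 0.0264). On the spike-in scale without that library neither was called (-0.30 and 0.08).

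rbcL, for the large subunit of Rubisco, had 96.6, 121 and 80.2 CPM in air, 50.6 and 75.8 CPM in ethylene replicates 1 and 2, and 761.9 CPM in ethylene replicate 3. The first pair of ethylene libraries lay below the air range and the last was 12.1 times their mean. The log2 fold change was 1.58 ± 0.81 with all libraries (edgeR adjusted p = 0.164) and -0.65 ± 0.20 without ethylene replicate 3 (edgeR adjusted p = 0.0384), and -0.09 on the spike-in scale without it. cemA, for a chloroplast envelope protein, fell by 0.67 ± 0.20 with all libraries (edgeR adjusted p = 0.0296), a call lost on the spike-in scale (-0.26) and without air replicate 3 or either of ethylene replicates 1 and 2. Without ethylene replicate 3 it fell by 0.96 ± 0.16 on the TMM scale (edgeR adjusted p = 0.00277), but was not called on the spike-in scale (-0.40). accD, for a subunit of the acetyl-CoA carboxylase of fatty acid synthesis, had 1.61 to 7.04 CPM and was called lower without ethylene replicate 3 (-0.94 ± 0.30). On the spike-in scale without that library accD was not called (-0.39). clpP was not called with all libraries or without that library, with log2 fold changes of -0.08 ± 0.17 and -0.32 ± 0.13.

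None of the NDH messages was called on the TMM scale, with or without ethylene replicate 3. Of all loci, 32.6% and 26.4% were called in these settings. The NDH complex returns electrons from ferredoxin to the plastoquinone pool around photosystem I. Its 9 named members had a median log2 fold change of 0.33 with all libraries and -0.03 without ethylene replicate 3. Of these, 8 were higher on the spike-in scale with all libraries and 5 without ethylene replicate 3, where 40% and 47.4% of all loci were higher. ndhK, the most abundant, had 268, 307 and 251 CPM in air and 249.6, 292 and 340.4 CPM after ethylene, and the groups overlapped. ndhH had 26.6, 26.1 and 25.5 CPM in air and 26.9, 34.5 and 37.0 CPM after ethylene, with no overlap, and its change of 0.33 ± 0.13 on the log2 scale was not called (edgeR adjusted p = 0.0714). It was called higher without ethylene replicate 1, and without ethylene replicate 3 the change was 0.23 ± 0.14. ndhA was not called by edgeR with all libraries (0.59 ± 0.25, adjusted p = 0.0930) or without ethylene replicate 3 (0.18 ± 0.15), but was higher in DESeq2. On the chloroplast scale without ethylene replicate 3, 3 of the 9 members (ndhA, ndhH and ndhJ) were higher, where 33.2% of all loci were. The median of the complex there was 0.37, against 0.42 for all loci tested.

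**Figure D3:**
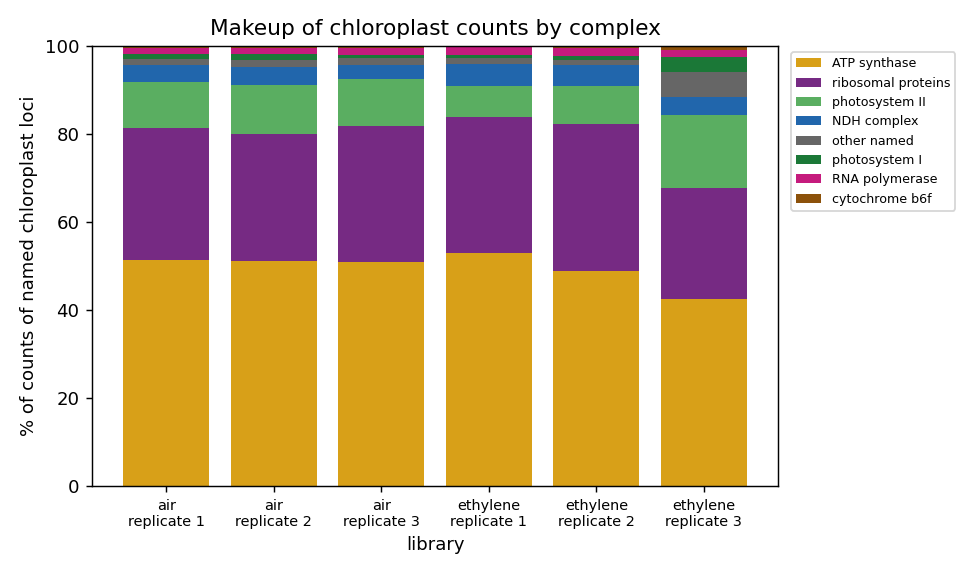
Stacked bars of the share of the counts of the 71 named loci held by each complex in each library, in percent. Photosystem II held 10.6% to 11.3% in air, 7.04% and 8.59% in ethylene replicates 1 and 2 and 16.6% in ethylene replicate 3, while the NDH complex held 3.32% to 4.01% in air and 4.07% to 4.98% after ethylene.

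Few ribosomal protein messages were called in either direction on the TMM scale. Of 20 loci, only rpl32 was called lower and only rps15 higher with all libraries, where 16.8% of all loci were lower and 15.8% higher. The median was 0.02 with all libraries and -0.18 without ethylene replicate 3. rpl32, for a protein of the large ribosomal subunit, had 1262, 1301 and 1488 CPM in air and 655, 894.7 and 935.8 CPM after ethylene. All ethylene libraries lay below the air range. It fell by 0.70 ± 0.13 (edgeR adjusted p = 0.00248) and was called whichever library was left out, by 0.56 to 0.80 on the log2 scale, but not on the spike-in scale (-0.27). rps15, for a protein of the small subunit, had 27.4, 25.8 and 24.2 CPM in air and 33.5, 35.7 and 40.7 CPM after ethylene, again without overlap. It rose by 0.51 ± 0.11 (edgeR adjusted p = 0.00620) and was called whichever library was left out and on the spike-in scale (0.95). rps14 was called lower without ethylene replicate 3 (-0.70 ± 0.21). None of the 20 was lower on the spike-in scale, and 10 were higher with all libraries, and 8 were higher without ethylene replicate 3. Of all loci, 40% and 47.4% were higher in these settings. The 2 loci named rpl2 and those named rps12 and rps7-A belong to genes that RefSeq lists in 2 copies, so their counts are uncertain; the rpl2 locus ATCG00830 had 34.2 to 40.2 CPM in air and the rpl2 locus ATCG01310 1.72 to 1.86 CPM.

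On the TMM scale none of the 4 plastid RNA polymerase genes was called with or without ethylene replicate 3. Their log2 fold changes were from 0.01 to 0.49 and from -0.36 to -0.10. Of all loci, 32.6% and 26.4% were called in these settings. Spike-in scaling gave 3 of the 4 genes higher with all libraries and 2 without ethylene replicate 3, where 40% and 47.4% of all loci were higher. rpoA, the most abundant, had 128, 141 and 142 CPM in air and 109, 146 and 161 CPM after ethylene. The genes transcribed mainly by the nuclear-encoded polymerase, taken as rpoB, rpoC1, rpoC2 and accD, had a median of 0.05 with all libraries and -0.24 without ethylene replicate 3.

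The height of ethylene replicate 3 varied along the genome in the order that RefSeq gives the genes. The ratios to the mean of ethylene replicates 1 and 2 were only 1.08 to 1.26 at rpl22, rps3, rpl16, rpl14, rpl36 and rpoA, which lie in this order in one stretch. From rps15 to psaC the ratio climbed at each gene, from 1.18 at rps15 through 1.21 at ndhH, 1.97 at ndhA, 2.49 at ndhI, 3.77 at ndhG and 4.91 at ndhE to 11.1 at psaC. From rpoB to atpA it was 1.28 at rpoB, 2.07 to 2.52 at rpoC1, rpoC2, rps2 and atpI, and 6.01 to 8.69 at atpH, atpF and atpA. Neighbours could also differ sharply, as with atpB at 1.22 beside rbcL at 12.1, and psaJ at 1.62 next to petG at 8.62 among the named loci. These runs of genes were chosen after their values were seen.

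The messages most abundant in air had low ratios. Per kilobase of coding length, levels in air ranged from 1.73 CPM for rps7-A to 8494 CPM for rpl32, with a median of 32.6 CPM. The 7 loci above 1000 CPM per kilobase were rpl32, psbM, atpE, atpB, rpl16, rps3 and rpl14, and their ratios lay between 1.08 and 1.28. By contrast, psbA stood at 112 CPM per kilobase in air and rbcL at 69.0 CPM per kilobase. Across the 71 named loci, which share libraries and depth, Spearman's rho between the air level per kilobase and the ratio was -0.55, given as a description.

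**Figure D4:**
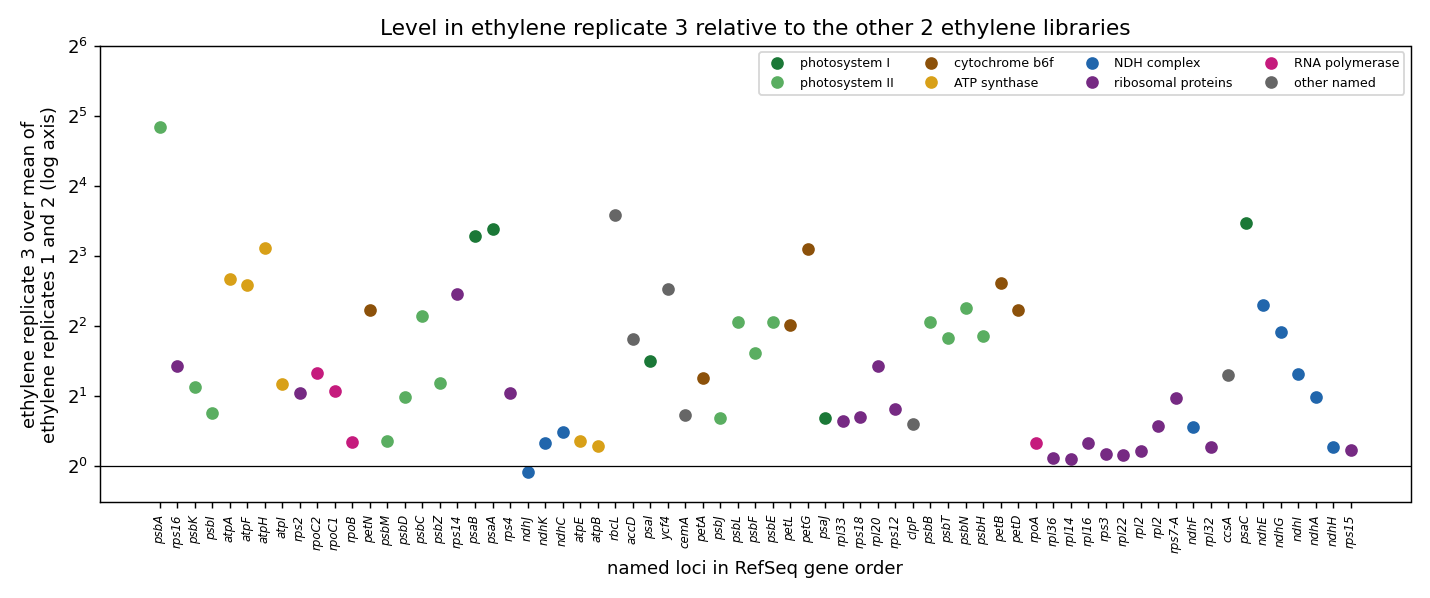
Ratio of the level in ethylene replicate 3 to the mean of ethylene replicates 1 and 2 (log axis) for 69 named loci in RefSeq gene order, coloured by complex. Ratios range from 0.946 at ndhJ to 28.7 at psbA, and rpl22, rps3, rpl16, rpl14, rpl36 and rpoA lie between 1.08 and 1.26.

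Among the unnamed identifiers, none of 31 tested was called with all libraries, where 32.6% of all loci were called. Without ethylene replicate 3, 3 were lower, where 13.9% of all loci were lower. The 4 with a ratio above 20 were ATCG00920, ATCG00950, ATCG01180 and ATCG01210, singled out after their values were seen. ATCG00950 had 3.35 to 4.55 CPM in air, 2.32 and 3.34 CPM in ethylene replicates 1 and 2 and 73.3 CPM in ethylene replicate 3. ATCG00920 had 1.66 to 1.97 CPM in air, 0.645 and 0.879 CPM in ethylene replicates 1 and 2 and 30.8 CPM in ethylene replicate 3. The most abundant unnamed identifier, ATCG01130, had 986 to 1226 CPM in air and 1016 to 1373 CPM after ethylene, and was not called.

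The authors' deposited table, which covers 101 of the 133 identifiers, calls 7 lower and 2 higher at an adjusted p under 0.05. The lower ones in the authors' deposited table are psbM, atpE, atpB, cemA, psaJ, rpl32 and ATCG00290, and the higher ones are ndhA and rps15. For psbA, atpH, psaA, rbcL and the 4 unnamed identifiers with a ratio above 20, the authors' deposited table gives a fold change but no p-value.

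Nuclear genes that serve chloroplast transcription were called in both directions, at shares near those of all loci. Of 20 genes for sigma factors, phage-type polymerases and proteins bound to the bacterial-type polymerase, 19 were tested. On the TMM scale 4 were lower and 4 higher (4 and 3 without ethylene replicate 3), where 16.8% of all loci were lower and 15.8% higher. On the spike-in scale 1 was lower and 8 were higher, where 4.63% and 40% of all loci were. SIG1, a sigma factor that directs the polymerase to promoters, fell by 1.38 ± 0.14 (edgeR adjusted p = 8.42e-05), and by 1.39 ± 0.17 without ethylene replicate 3. PAP4, an iron superoxide dismutase bound to the polymerase, rose by 0.61 ± 0.09 (edgeR adjusted p = 0.000612), and by 0.57 ± 0.10 without that library.

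Of 14 genes for chloroplast RNA processing and stability, 13 were tested. On the TMM scale 4 were lower and 1 was higher, with or without ethylene replicate 3. Of all loci, 16.8% were lower and 15.8% higher, or 13.9% and 12.5% without that library. On the spike-in scale none was lower and 4 were higher (5 without that library), where 40% and 47.4% of all loci were higher. HCF152, an RNA-binding protein needed to process psbH and petB transcripts, fell by 0.82 ± 0.09 (edgeR adjusted p = 0.000142), and by 0.84 ± 0.11 without ethylene replicate 3. PNP, a 3' exonuclease, rose by 0.29 ± 0.07 (edgeR adjusted p = 0.0125), and by 0.29 ± 0.09 without that library.

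Markers of green shoot and root were compared beside these results. Of 8 nuclear markers of green shoot, 3 were lower and none higher on the TMM scale (2 lower without ethylene replicate 3). Of all loci, 16.8% were lower, or 13.9% without that library. None of the 8 markers was called on the spike-in scale with all libraries, and 3 were higher and none lower without ethylene replicate 3. Of all loci, 40% and 47.4% were higher in these settings. The green shoot markers summed to 20783 to 22329 CPM in air and 16050 to 18906 CPM after ethylene on the TMM scale, without overlap. RBCS1A, PSBO1 and GAPB made up most of this sum. RBCS1A by itself overlapped between the groups, at 9219 to 10286 CPM in air and 7690 to 9405 CPM after ethylene. It was not called (edgeR adjusted p = 0.0867). Of 8 root markers, 7 were tested, and 2 were higher and none lower on the TMM scale, where 15.8% of all loci were higher. Without ethylene replicate 3, 4 of 8 were higher, where 12.5% of all loci were higher. All 7 tested were higher on the spike-in scale, and all 8 without ethylene replicate 3, where 40% and 47.4% of all loci were higher. The summed root level was 4743 to 6334 CPM in air and 5370 to 6426 CPM after ethylene, which overlapped. PYK10 made up most of this sum, at 4683 to 6222 CPM in air and 5213 to 6217 CPM after ethylene. Its log2 fold change was 0.02 on the TMM scale, whereas the other tested root markers had values from 0.31 to 1.56. Both sets were detected, while 3 of 4 seed storage markers had no count in any library. The part of tissue composition in the chloroplast results was not tested.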

How the data were processed

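The authors deposited raw read counts by transcript, as whole numbers, for 6 seedling libraries. The aligner, counter, genome build and strand setting are not given in the sources used here, so no coordinates or sequences are printed. Per the file headers, the authors' deposited comparison table holds a log2 fold change, a p-value and its adjusted value for each transcript. The signal columns of the authors' deposited table equal the counts over 1 factor per sample, as read from the values, and were not used. Counts were summed to 32833 loci, and 92 spike-in RNAs were kept apart. Replicates differed by more than sampling noise (chi-square per degree of freedom 5.20 to 29.4). Loci passing filterByExpr (minimum count 10, minimum total 15; 17887 loci, or 18340 without ethylene replicate 3) were tested with edgeR 4.0.16 in R 4.3.3 (TMM factors, quasi-likelihood F-test, group alone, Benjamini-Hochberg adjustment over all loci), with DESeq2 1.42.0 as an alternative. The fit was tested on simulated data in which no library stood apart from its group. The simulation therefore does not cover a library like ethylene replicate 3. Standard errors are the size of the log2 fold change over the square root of F. CPM are TMM-scaled. Of the named loci, 2 enter the counts and medians but are not reported singly here. Coding lengths and gene order came from RefSeq TAIR10.1. Members, lists and tests were chosen with earlier results of these data known. For each complex the text names the most abundant locus, up to 3 called loci with the smallest p in each direction, the extreme fold changes and a fixed set of well-known genes, and also loci called without ethylene replicate 3.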

Additional observations from a re-analysis of the deposited data

How the results depend on the processing

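Over 32 genes and 569 alternative values of their log2 fold changes, 415 kept direction and side of the threshold, 48 lost the call, 39 gained one and 67 changed sign. The number of loci called was 5835, but 3343 with chloroplast scaling and 9472 on the spike-in scale without ethylene replicate 3. The 7 lower chloroplast loci became 2 to 18 when 1 library was left out: 3, 4 and 3 without air replicates 1, 2 and 3, and 2, 2 and 18 without ethylene replicates 1, 2 and 3. They became 4 with upper-quartile factors, 4 at a mean CPM of at least 5, and 0 on the spike-in scale and with chloroplast scaling. Beside these zeros, edgeR gave 44 and 20 named loci an unadjusted p under 0.05 in either direction, and DESeq2 called 6 lower. The 1 higher locus became 1 to 3 when 1 library was left out (3 without ethylene replicate 1), 38 on the spike-in scale, 3 when low counts were not filtered, 7 with chloroplast scaling and 2 with DESeq2. With ethylene replicate 3 left out it became 15 on the spike-in scale and 8 with chloroplast scaling, combinations chosen after seeing the data. The log2 ratio of the chloroplast share of counts was -0.0057, from -0.23 (without ethylene replicate 3) to 0.143 (without ethylene replicate 1) with 1 library left out, and 0.25 per spike-in count. The cause of these shifts was not tested.

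For genes whose log2 fold change crossed 0 when 1 library was left out, the values ranged from -1.54 to 2.36 for psbA, -1.28 to 0.20 for psbC, -0.86 to 0.57 for psbB, -0.70 to 1.04 for rps14, -0.86 to 1.05 for atpA, -0.49 to 0.22 for atpI, -0.44 to 1.85 for atpH, -0.10 to 0.17 for rpoA, -0.11 to 0.76 for rpoC2, -0.12 to 0.15 for rpoB and -0.36 to 0.33 for rpoC1. The others ranged from -0.67 to 1.19 for petB, -0.50 to 2.05 for psaA, -0.43 to 2.18 for psaC, -0.40 to 2.05 for psaB, -0.028 to 0.20 for ndhK, -0.25 to 1.37 for ndhE, -0.32 to 0.048 for ndhF, -0.65 to 2.08 for rbcL, -0.94 to 0.29 for accD and -0.32 to 0.038 for clpP. On the spike-in scale the signs that changed were 0.15 for psbC, 0.16 for atpB, 0.12 for atpE, 0.10 for petA, 0.32 for ndhF, 0.31 for accD and 0.34 for clpP. With chloroplast scaling the signs that changed were 0.063 for ndhF and 0.094 for clpP. On the spike-in scale with ethylene replicate 3 also left out the signs that changed were -0.97 for psbA, -0.30 for psbB, -0.13 for rps14, 0.18 for atpB, 0.11 for atpE, -0.30 for atpA, -0.12 for petB, 0.24 for ndhF, -0.092 for rbcL and 0.25 for clpP. With chloroplast scaling and ethylene replicate 3 also left out the signs that changed were -1.14 for psbA, -0.47 for psbB, -0.29 for rps14, 0.017 for atpB, -0.47 for atpA, -0.083 for atpI, -0.051 for atpH, -0.29 for petB, -0.11 for psaA, -0.028 for psaC, -0.016 for psaB, 0.076 for ndhF, -0.27 for rbcL and 0.093 for clpP. Where a gene was counted low, the depth of 1 count per 0.0584 to 0.0777 CPM limits what could be called.

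Replicate numbers are shared between groups, but libraries of the same number hardly deviated together (r of 0.0237, -0.0585 and 0.12). Pairs of different number had r from -0.13 to 0.12. With 3 libraries per group, these values cannot decide whether libraries of the same number were paired. With the replicate block 8 named loci were lower, psbZ being added, and 1 was higher, 5574 loci were called in all, and the sign changed for psbA (-0.21), psbB (-0.16) and atpI (-0.084).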
